A study of Mus musculus with 6 samples.

Results

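The genes described here lie on mouse chromosome 11 and had a shifted level in mice that lack the miR-144/451 locus, with the Schlafen genes left out. They are Xaf1, Trim11, Trim16, Fbxw10 and AA465934, 5 of the 44678 gene identifiers counted and of the 13024 genes with enough counts to be tested. They were chosen by their own difference between KO and WT libraries, as the genes within 20 Mb of Mir144 whose unadjusted p-value was under 0.001 once Slfn8 and Slfn9 were set aside. Their difference between genotypes is therefore a description, and its p-values are given only to show where the threshold fell and how adjustment changed them. The choice thus used their position in the window and screened the genes beside them by the same threshold. It did not use their overlap with other genes, their sequence or the pathways they belong to.

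The data are 6 RNA-seq libraries of CD8a+ leukocytes from the spleens of untreated mice, 3 from WT and 3 from miR-144/451 knockout (KO) animals. By the study's methods the KO line is on the C57BL/6J background and lacks a short genomic segment that holds both microRNA precursors, the WT mice are C57BL/6J animals from an animal centre, and all were young adults. The methods do not say that WT and KO mice were littermates. The sample records do not say whether each library came from a different mouse, so the spread between libraries may be technical in part. The libraries held between 8143971 and 8876570 counts. A count of 3 was worth 0.338 to 0.368 CPM (counts scaled to the library total), which is taken as the floor and covers counting error only. Mir144 and Mir451a had 0 counts in all 6 libraries, WT included, so the deletion itself could not be read from these counts.

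The miR-144/451 locus makes a pair of microRNAs from 1 transcript, and it is known for its high activity in maturing red blood cells. A microRNA guides an Argonaute protein to messenger RNAs that pair with its seed, the bases near its 5′ end, and lowers their level. Of the 5 genes, 4 encode proteins. XAF1 binds XIAP, an inhibitor of caspases, and opposes it, and Xaf1 is induced by interferon. TRIM11 and TRIM16 belong to the tripartite motif family, many of whose members are ubiquitin ligases. TRIM11 is linked to the control of the AIM2 inflammasome and TRIM16 to the clearance of damaged membranes by autophagy. FBXW10 is an F-box protein with WD40 repeats, the kind of protein that brings substrates to SCF ubiquitin ligases. AA465934 is annotated as a noncoding processed transcript.

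All 5 genes lie on the plus strand of chromosome 11 (GRCm38, GENCODE M21). Trim11 (ENSMUSG00000020455) spans 58978093 to 58991458, and Trim16 (ENSMUSG00000047821) spans 62820231 to 62850808. Fbxw10 (ENSMUSG00000090173) spans 62847069 to 62877465. Xaf1 (ENSMUSG00000040483) spans 72301629 to 72313733. AA465934 (ENSMUSG00000093483) spans 83291699 to 83294632. Mir144 lies from 78073005 to 78073070 on the same strand. Trim11 is 19.082 Mb, Trim16 15.222 Mb, Fbxw10 15.196 Mb and Xaf1 5.759 Mb from Mir144 on the lower side, and AA465934 is 5.219 Mb from it on the upper side. None of the 5 is thus next to the deleted segment.

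The 3 mature microRNAs of the deleted locus are shown because their seeds can be searched for in the 5 genes. The sequences are from RefSeq (GRCm38.p6, plus strand), read 5′ to 3′, with bases 2 to 8, the seed, in capitals.
mmu-miR-144-5p, chr11:78073010-78073032: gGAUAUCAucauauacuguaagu
mmu-miR-144-3p, chr11:78073047-78073066: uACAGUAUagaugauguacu
mmu-miR-451a, chr11:78073186-78073207: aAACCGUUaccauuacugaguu
The 3 seeds differ from one another. Their 7-base matches in a target are TGATATC for miR-144-5p, ATACTGT for miR-144-3p and AACGGTT for miR-451a. None of the 3 matches occurred in any annotated 3′-UTR of Xaf1, Trim11, Trim16 or Fbxw10, of which the longest have 1727, 2613, 1961 and 1001 nt, or in any of the 24 annotated transcripts of the 5 genes. Among the 11586 tested genes with an annotated 3′-UTR, 7.21% held the match of miR-144-5p, 15.3% that of miR-144-3p and 2.57% that of miR-451a. The absence of these letters from the annotated transcripts says nothing of weaker or unannotated sites.

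Of the 5 genes, 3 have an entry in the RefSeq promoter table (GRCm38.p6), namely Xaf1, Fbxw10 and AA465934. The 250 bases before each RefSeq start are printed because these genes were all higher in KO libraries, and they show what lies at each start. All are on the plus strand, and capitals mark matches of the core of interferon regulatory factor sites, AANNGAAA, on either strand.
Xaf1, chr11:72301379-72301628: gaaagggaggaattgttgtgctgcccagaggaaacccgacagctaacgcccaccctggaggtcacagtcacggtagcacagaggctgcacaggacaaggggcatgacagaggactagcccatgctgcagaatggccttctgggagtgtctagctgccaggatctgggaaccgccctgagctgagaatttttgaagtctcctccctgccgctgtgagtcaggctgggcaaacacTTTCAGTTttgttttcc
Fbxw10, chr11:62846873-62847122: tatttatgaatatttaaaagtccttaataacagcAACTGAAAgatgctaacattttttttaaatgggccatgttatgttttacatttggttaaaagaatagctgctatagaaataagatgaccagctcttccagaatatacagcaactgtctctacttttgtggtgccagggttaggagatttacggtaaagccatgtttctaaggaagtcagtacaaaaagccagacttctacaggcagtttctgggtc
AA465934, chr11:83291449-83291698: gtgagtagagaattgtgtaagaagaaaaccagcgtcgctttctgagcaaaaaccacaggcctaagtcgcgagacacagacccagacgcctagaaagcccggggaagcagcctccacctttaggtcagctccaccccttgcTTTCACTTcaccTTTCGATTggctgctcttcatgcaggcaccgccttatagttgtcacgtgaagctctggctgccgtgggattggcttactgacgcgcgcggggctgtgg
The 3 promoters differ in base composition. Fbxw10 had 35.6% G and C with 1 CpG, Xaf1 had 56.0% with 5 CpG and AA465934 had 55.6% with 14 CpG, against medians of 52.4% and 6 over the 32851 promoters of the table. The core AANNGAAA occurred once in Xaf1, once in Fbxw10 and 2 times in AA465934, and 21.3% of all promoters of this length hold it. The interferon-stimulated response element, which is GAAA followed by any 2 bases and by GAAA again and is held by 2.98% of promoters, occurred in none of the 3. AA465934 held 2 CCAAT boxes (CCAAT, in 33.8% of promoters), both on the minus strand, and Xaf1 and Fbxw10 held none. TATAAA, found in 12.4% of promoters, occurred in none of the 3. The motifs were chosen with the promoter sequences in view, both strands were searched, and the longer element holds the core within it. A match is a description of letters and not a binding site. The 250 bases before Fbxw10 lie within the annotated span of Trim16.

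Levels are given as CPM scaled with TMM factors. Every KO library was above every WT library for each of the 5 genes. This holds for 5.83% of all 13024 tested genes, and for 11.5% when either direction is counted, but it follows in large part from how the genes were chosen and nothing is read from it. By the same choice all 5 had an unadjusted p-value under 0.001, as did 0.238% of tested genes, or 0.192% counting those higher in KO libraries. The log2 fold changes of KO against WT come from a fit by edgeR over all tested genes and are given with their standard errors (SE). In bulk RNA of a mixed cell fraction a higher level may reflect more cells of a type or more RNA per cell, and these cannot be told apart.

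Xaf1, the antagonist of XIAP, was counted 419, 414 and 312 times in the 3 WT libraries, in the order of their numbers, and 930, 1097 and 1153 times in the 3 KO libraries. In CPM these were 47.8, 47.2 and 38.7 in WT and 108, 132 and 132 in KO. The WT values lay close together, and the lowest KO library was 2.25 times the highest WT library. The means were 44.6 ± 5.09 CPM for WT and 124 ± 14.1 CPM for KO (SD, n = 3 each), a log2 fold change of 1.47 (SE 0.12), or 2.78-fold.

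Trim11, the family member linked to the AIM2 inflammasome, was the most even of the 5 between libraries. Its WT counts were 736, 762 and 716, and its KO counts were 1053, 952 and 1013. These counts correspond to 84.0, 86.9 and 88.8 CPM in WT and to 122, 115 and 116 CPM in KO. The groups did not overlap, but the gap was small, with the lowest KO library 1.29 times the highest WT library. The means were 86.6 ± 2.45 CPM for WT and 117 ± 3.904 CPM for KO (SD, n = 3 each), a log2 fold change of 0.44 (SE 0.074), or 1.36-fold. Of all 13024 tested genes, Trim11 ranked 1170 by the size of its rise, while the other 4 ranked 6 (AA465934), 9 (Trim16), 35 (Fbxw10) and 46 (Xaf1). A small difference with a small spread thus passed the same threshold as large differences with a wide spread.

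Trim16, the family member of membrane-damage autophagy, was close to the floor in WT libraries. Its WT counts were 17, 10 and 5, and its KO counts were 84, 48 and 71, or 1.94, 1.14 and 0.620 CPM against 9.72, 5.77 and 8.13 CPM. The means were 1.23 ± 0.665 CPM for WT and 7.88 ± 1.99 CPM for KO (SD, n = 3 each), a log2 fold change of 2.65 (SE 0.41), or 6.28-fold. The lowest KO library was 2.98 times the highest WT library. From the summed counts, 32 in WT and 203 in KO, the ratio of KO to WT was 6.40 with an exact 95% interval of 4.40 to 9.61 for counting error alone.

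Fbxw10, the F-box protein whose gene begins inside the span of Trim16, was counted 26, 22 and 20 times in WT libraries and 83, 51 and 68 times in KO libraries. In CPM these were 2.97, 2.51 and 2.48 against 9.61, 6.13 and 7.79. The means were 2.65 ± 0.272 CPM for WT and 7.84 ± 1.74 CPM for KO (SD, n = 3 each), a log2 fold change of 1.56 (SE 0.27), or 2.95-fold. The lowest KO library was 2.07 times the highest WT library. The KO libraries came in the same order for Trim16 and Fbxw10, with KO1 highest and KO2 lowest.

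AA465934, the noncoding transcript, was counted 2, 12 and 4 times in WT libraries and 88, 82 and 67 times in KO libraries. The corresponding levels were 0.228, 1.37 and 0.496 CPM in WT and 10.2, 9.86 and 7.67 CPM in KO. WT library 1 was below the floor of 3 counts, and WT library 2 held most of the WT counts. The means were 0.698 ± 0.597 CPM for WT and 9.24 ± 1.37 CPM for KO (SD, n = 3 each), a log2 fold change of 3.69 (SE 0.49), or 12.9-fold. Without WT library 2 the log2 fold change was 4.63, so this single library set much of its size. From the summed counts, 18 in WT and 237 in KO, the ratio of KO to WT was 13.3 with an exact 95% interval of 8.23 to 22.8 for counting error alone. A small nucleolar RNA gene within AA465934, Snord7, had 0 counts in every library.

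**Figure D1:**
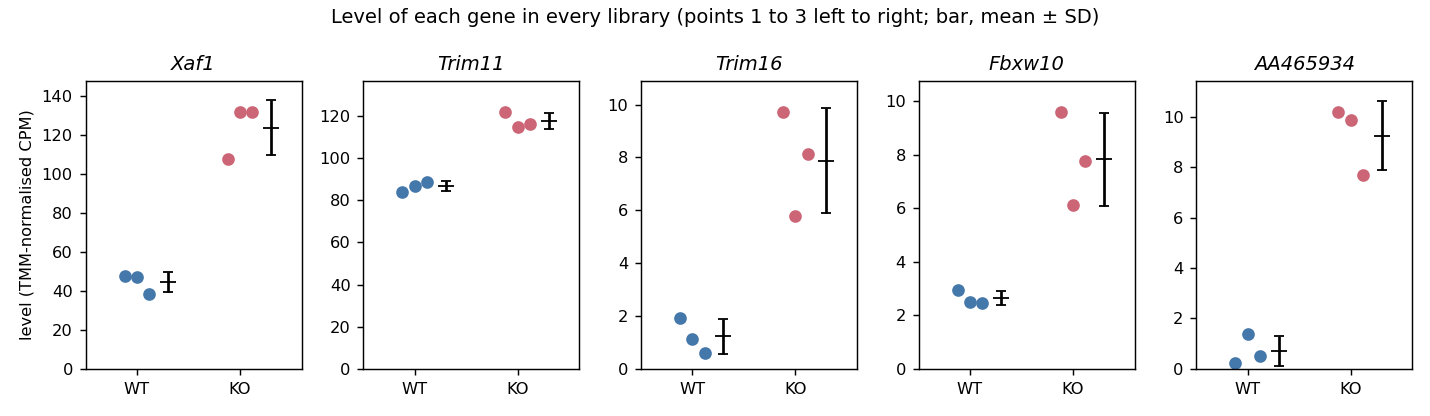
Level of each of the 5 genes in CPM (vertical axes, linear from 0, a separate scale for each gene) in the 3 WT (blue) and 3 KO (red) libraries, with the mean ± SD of each group in black. Every KO point lies above every WT point, with the smallest gap for Trim11 (1.29 times) and the widest for AA465934 (5.60 times).

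Levels of different genes were compared per kilobase of exon. In WT libraries the order of mean CPM per kilobase was Trim11 at 24.2 ± 0.685 (SD, n = 3), Xaf1 at 9.51 ± 1.09, AA465934 at 0.982 ± 0.839, Fbxw10 at 0.659 ± 0.0676 and Trim16 at 0.270 ± 0.145. AA465934 overlapped Fbxw10 and Trim16 in this order, while Fbxw10 was above Trim16 in every WT library. In KO libraries the order was Trim11 at 32.8 ± 1.09, Xaf1 at 26.4 ± 2.997, AA465934 at 12.997 ± 1.92, Fbxw10 at 1.95 ± 0.432 and Trim16 at 1.72 ± 0.435. The order of the means was the same in both genotypes. In KO libraries Fbxw10 and Trim16 overlapped, and no other neighbours in the order did.

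Trim16 and Fbxw10 cannot be counted wholly apart. Their annotated spans overlap by 3740 bp on the same strand and share 237 exon bases, 5.19% of the exon bases of Trim16 and 5.89% of those of Fbxw10. The shared bases are the last exon of 1 Trim16 transcript, Trim16-202, at 62850572 to 62850808, where 5 of the 6 Fbxw10 transcripts have an exon with the same start. Of the 31-base words in their transcripts, 4.56% of those of Trim16 and 5.13% of those of Fbxw10 occurred in the other gene and nowhere else. The counts of Fbxw10 divided by those of Trim16 were 1.53, 2.2 and 4 for WT libraries 1 to 3 and 0.988, 1.06 and 0.958 for KO libraries 1 to 3, so the ratios of the groups did not overlap, on WT counts of only 5 to 26 per gene. Added together, which removes the question of how shared reads were divided, the pair reached 4.91, 3.65 and 3.10 CPM in WT and 19.3, 11.9 and 15.9 CPM in KO. Whether the reads of this pair came from 1 long transcript or from both genes cannot be read from counts per gene.

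**Figure D2:**
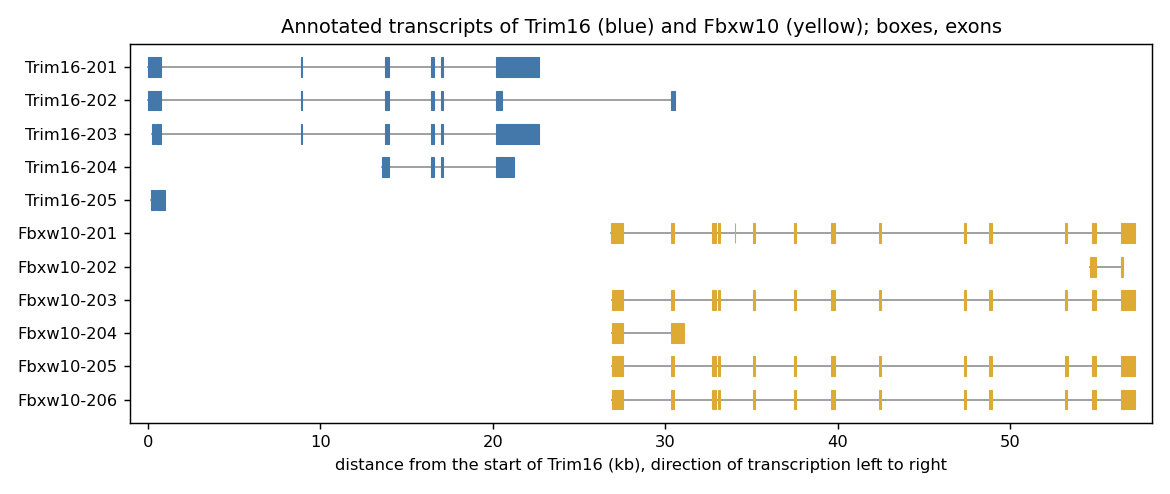
Annotated transcripts of Trim16 (blue) and Fbxw10 (yellow) against the distance in kb from the start of Trim16, drawn to scale with exons as boxes and introns as lines. The last exon of Trim16-202 begins where an exon of 5 of the 6 Fbxw10 transcripts begins. Its 237 bases are all covered by exon in the retained-intron transcript Fbxw10-204, the other 4 have a shorter exon there, and all other exons of the pair are apart.

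The other 3 genes share few sequences. Trim11 had no 31-base word in common with any other gene. Xaf1 shared 3.27% of its words, spread over 3775 genes, and AA465934 shared 1.85%, spread over 228 genes.

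The genes beside the 5 lie in the same window, where any gene under the threshold of 0.001 would have joined the 5, so their values are a description too. The 3 nearest tested genes on each side make 24 distinct neighbours, since Trim16 and Fbxw10 have theirs in common. An unadjusted p-value under 0.05 in edgeR's fit was found for 2 of 24, beside 6.25% of all tested genes, and none could be under 0.001. Of the neighbours 11 had a positive and 13 a negative log2 fold change, with a median of -0.06 and a range of -1.09 to 1.24, beside a median of 0.00297 over all tested genes.

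The pair of neighbours under an unadjusted 0.05 lay close to Trim11 and to Trim16. The noncoding gene 2310058D17Rik starts 42 bp from Trim11 on the opposite strand, so that the pair points away from a common start. It had 2.39 ± 0.932 CPM for WT and 1.13 ± 0.178 CPM for KO (SD, n = 3 each), a log2 fold change of -1.07 (SE 0.42), with every KO library below every WT library. Its direction was opposite to that of Trim11. Zfp286, a zinc finger gene below Trim16, was counted 9, 7 and 7 times in WT libraries and 15, 16 and 24 times in KO libraries, a log2 fold change of 1.24 (SE 0.38). Zfp287, the next zinc finger gene, lay the other way at -0.28 (SE 0.16), with KO libraries below WT. Above the pair, Tvp23b had a log2 fold change of 0.25 (SE 0.15) and overlapping groups.

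The neighbours of Xaf1 all overlapped between genotypes. They are 4933427D14Rik, Txndc17 and Med31 below it, with log2 fold changes of -0.16, -0.21 and 0.39, and Mybbp1a, Spns2 and Spns3 above it, with -0.07, 0.35 and 0.56. Mybbp1a, the most abundant of them, had 260 ± 25.2 CPM for WT and 248.5 ± 19.6 CPM for KO (SD, n = 3 each). The neighbours of AA465934 also overlapped. Among them Slfn3, AI662270 and Gm11427 had log2 fold changes of 0.36, 0.03 and 0.22, and Ap2b1, a subunit of the clathrin adaptor that lies above it, had -0.09 with 196 ± 8.44 CPM for WT and 184 ± 10.04 CPM for KO (SD, n = 3 each).

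**Figure D3:**
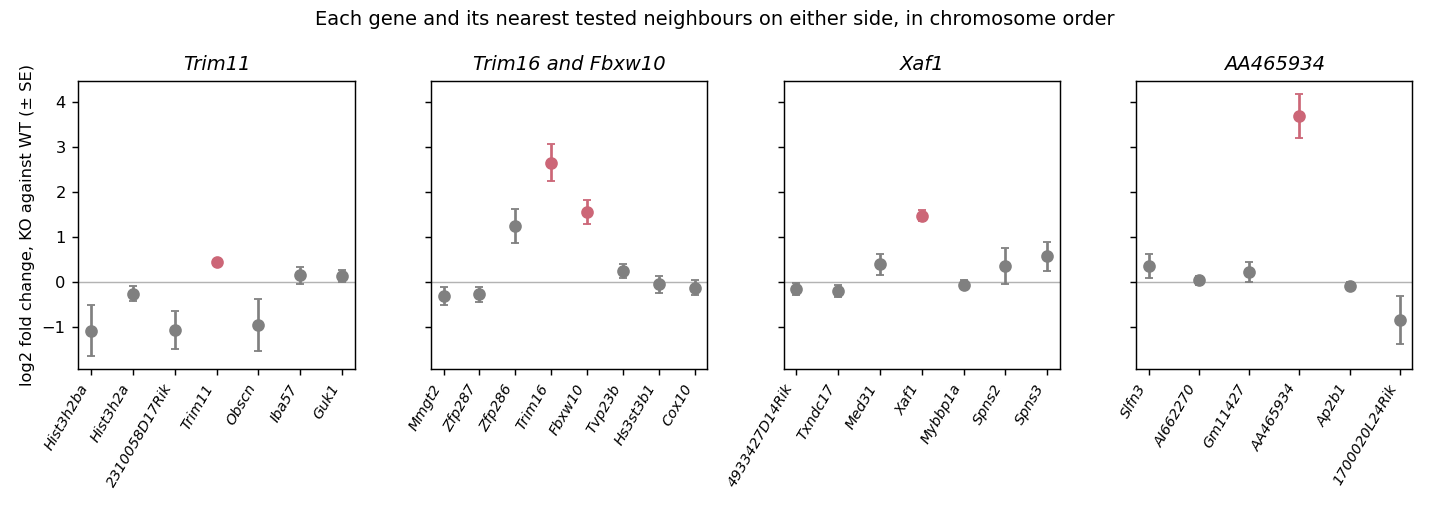
Log2 fold change of KO against WT (vertical axis, points with SE bars) for each of the 5 genes (red) and their nearest tested neighbours on either side (grey, 3 a side with 1 left out above AA465934), in chromosome order from left to right. The neighbours spread around 0 from -1.09 to 1.24. Each red point lies above all its grey ones, which follows in large part from how the 5 genes were chosen.

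In the whole window of 20 Mb on either side of Mir144, 474 genes were tested. Leaving out the 5, the choice left only Slfn9, with a log2 fold change of 3.32, and Slfn8, with -1.80, among 469 genes under the threshold of 0.001, so no count of genes past an adjusted p-value is read here. Of the 469, 45 (9.59%) had an unadjusted p-value under 0.05, beside 6.25% of all tested genes. Their median log2 fold change was 0.0016. Every KO library was above every WT library for 35 of them (7.46%, beside 5.83% of all tested genes) and below for 28. The 5 genes did not lie in 1 stretch of the window. Of the 5, 3 fell between 15 and 20 Mb below Mir144, where 10 of 83 others (12.05%) had an unadjusted p-value under 0.05 and the median of the others was -0.02. Xaf1 fell between 5 and 10 Mb below it, where 8 of 107 others (7.48%) did so, and AA465934 between 5 and 10 Mb above it, where 5 of 64 others (7.81%) did so. The other stretches held none of the 5. The largest share of tested genes under 0.05 was in one of these, within 5 Mb below Mir144, with 12 of 64 (18.8%), and the share was 5 of 54 (9.26%) within 5 Mb above it, where Slfn8 and Slfn9 lie. It was 0 of 9 and 0 of 13 between 10 and 15 Mb below and above, and 5 of 75 (6.67%) between 15 and 20 Mb above.

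The threshold of 0.001 that chose the 5 genes cut through a range of values. Just inside it were Fbxw10, with an unadjusted p-value of 0.000386 in edgeR's fit, and Trim11, with 0.000326. Just outside it were Gdpd1, a phosphodiesterase gene, with 0.00138, and the noncoding gene 2810021J22Rik, with 0.00184. Gdpd1 was counted 6, 7 and 3 times in WT libraries and 23, 22 and 18 times in KO libraries, with a log2 fold change of 1.95 (SE 0.41). For 2810021J22Rik the WT counts were 119, 121 and 117 and the KO counts 213, 157 and 244, with a log2 fold change of 0.77 (SE 0.17). It lies 94.8 kb from Trim11, beyond the nearest 3 neighbours.

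**Figure D4:**
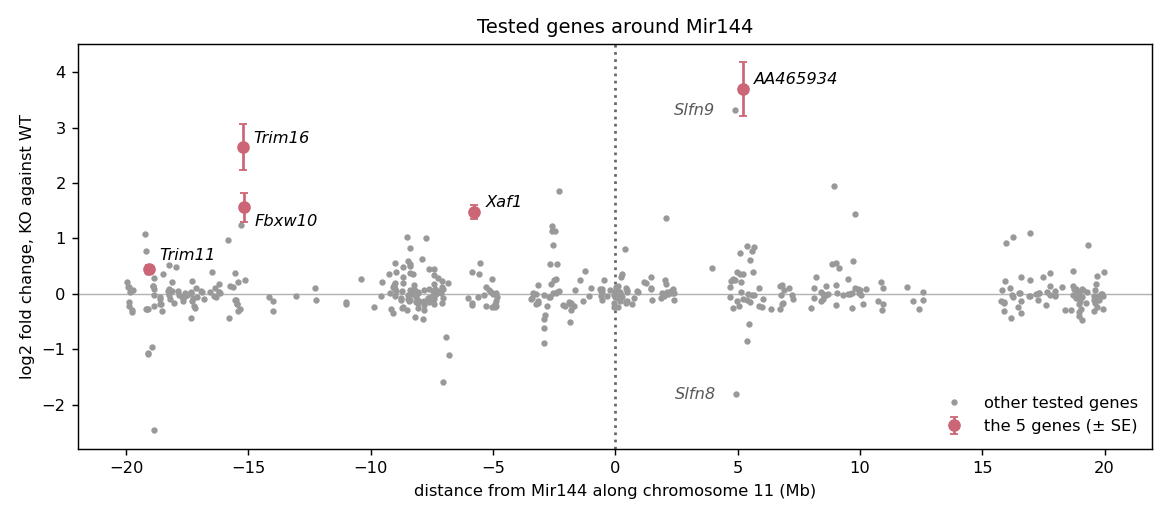
Log2 fold change of KO against WT for the 474 tested genes within 20 Mb of Mir144 (dotted line), against their distance from it in Mb, with the 5 genes in red (bars, SE). The other genes lie mostly near 0 (median 0.0016), and the red points are at 4 places on both sides of Mir144.

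The likeness of the 5 genes' profiles was described by the root mean square difference of their log2 levels over the 6 libraries, each gene centred on its own mean. The closest pair was Xaf1 and Fbxw10, with 0.289, although they lie far apart on the chromosome. Trim16 and Fbxw10, which share an exon, were at 0.745, and AA465934 was between 1.25 and 1.97 from the other 4. This measure takes in the size of the difference between genotypes, by which the genes were chosen, as well as the libraries within each, and these parts were not separated. Among 12235 other genes with sufficient level, the 3 nearest to Xaf1 were Ctnnd2 (0.201), 4931413K12Rik (0.232) and Igkv4-58 (0.250). Those nearest to Trim11 were Pak1 (0.0553), Rab43 (0.0734) and Zdhhc14 (0.0742). For Fbxw10 they were Igkv8-27 (0.211), Igkv4-58 (0.276) and Ctnnd2 (0.306). Trim16 was nearest to Gm8797 (0.336), Slfn9 (0.542) and Glis3 (0.663). AA465934 had no near profile, with Slfn9 at 0.792, Kdelc2 at 1.39 and Glis3 at 1.40. Slfn9 lies 300 kb from AA465934 and was counted 86, 112 and 48 times in WT libraries and 734, 828 and 891 times in KO libraries.

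The genes that work with XAF1 were looked at as a list of inhibitors of apoptosis and caspases. None of 19 tested genes passed an adjusted p-value of 0.05 in edgeR's quasi-likelihood test, which 4 of all tested genes (0.0307%) passed. DESeq2 and limma voom also gave 0 of the list. Beside 6.25% of all tested genes, 2 of the 19 had an unadjusted p-value under 0.05 in edgeR. Of these Xiap, the binding partner of XAF1, had 108, 111 and 104 CPM in WT and 124, 134 and 131 CPM in KO libraries, a log2 fold change of 0.26 (SE 0.076, adjusted p = 0.659 by edgeR). Its KO libraries all lay above its WT libraries, by less than those of Xaf1. This separation was found for 2 of the 19 genes, beside 5.83% of all tested genes, and 2 others, Diablo and Siva1, had all KO libraries below WT. Casp8 and Birc3, the most abundant of the list per kilobase, had -0.10 and 0.09 with overlapping groups. The list had 15 positive and 4 negative log2 fold changes and a median of 0.11.

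Xaf1 is an interferon-stimulated gene, and 44 others were tested beside it. None passed the adjusted threshold (0 also by DESeq2 and limma voom). The median log2 fold change was 0.05, with 30 positive and 14 negative. Beside 6.25% of all tested genes, 1 of the 44 had an unadjusted p-value under 0.05 in edgeR. That 1 gene was Ifi204, a DNA sensor, at 0.95 (SE 0.40, adjusted p = 0.786 by edgeR) with overlapping groups. Bst2, among the most abundant of the list per kilobase, had a log2 fold change of -0.09. Phf11d had a log2 fold change of 0.46 (SE 0.24). The log2 fold change of Xaf1, 1.47, by which it was chosen, was above that of each of the 44.

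The TRIM family beyond Trim11 and Trim16 had 38 tested genes of 66, of which none passed the adjusted threshold in edgeR (0 also by DESeq2 and limma voom). Beside 6.25% of all tested genes, none of the 38 had an unadjusted p-value under 0.05 in edgeR. Their median log2 fold change was 0.02, with 20 positive and 18 negative. Trim28, a corepressor of transcription, had -0.10 (SE 0.12), Trim30a had 0.26 (SE 0.13) and Trim30d had 0.34 (SE 0.16). Genes of damage autophagy and the Nrf2 pathway, with which TRIM16 acts, gave 0 of 20 at either threshold and a median of 0.04. Gabarap and Sqstm1, which encode autophagy proteins, had 0.01 and 0.06, Uvrag had 0.25 and Lgals3, which encodes galectin-3, had 0.41 (SE 0.21) with overlapping groups. Genes of the inflammasome, to which TRIM11 is linked, gave 0 of 11 at either threshold and a median of 0.13. Il1b had 0.13, Gsdmd -0.08, Il18 0.72 (SE 0.48) and Nlrc4 0.52 (SE 0.39), all with overlapping groups. DESeq2 and limma voom also gave 0 at the adjusted threshold in these lists.

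The F-box family beyond Fbxw10 had 48 tested genes of 78. None passed the adjusted threshold in edgeR, DESeq2 or limma voom. An unadjusted p-value under 0.05 in edgeR, which 6.25% of all tested genes had, was found for none of the 48. Their median log2 fold change was -0.01, with 21 positive and 27 negative, and Fbxl14, the most abundant per kilobase, had -0.02. Fbxl8 had -0.45 (SE 0.20) and Fbxo11 0.17 (SE 0.081). The core and regulators of SCF ligases gave 0 of 12 at either threshold, with a median of -0.05, Nedd8 at -0.05, Skp1a at -0.17 and Cand1 at -0.14. Of all genes tested, 0.0154% passed the adjusted threshold with a higher level in KO libraries.

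**Figure D5:**
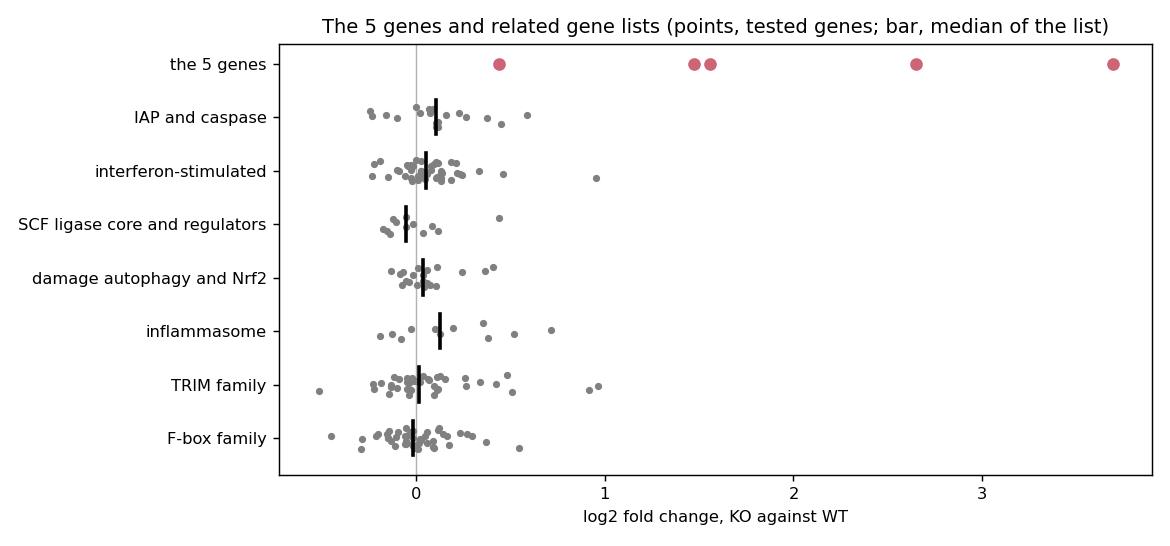
Log2 fold change of KO against WT (horizontal axis) for the 5 genes (red) and for the tested genes of 5 pathway lists and 2 gene families (grey points, with a bar at the median of each list and points spread vertically for legibility). List medians lie between -0.05 and 0.13, and the 5 genes lie between 0.44 and 3.69.

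Levels of cell type markers varied between libraries, and no marker passed the adjusted threshold. The cells are labelled CD8a+, and Cd8a had 904 ± 185 CPM for WT and 732 ± 279 CPM for KO (SD, n = 3 each), yet markers of B cells, monocytes, neutrophils and red cells were detected in every library. The summed level of 8 markers of conventional type 1 dendritic cells, which also carry CD8a in the spleen, lay between 728 and 863 CPM in WT and between 951 and 1153 CPM in KO, a ratio of means of 1.35. All 8 had a positive log2 fold change, 5 of them at an unadjusted p-value under 0.05 by edgeR (6.25% of all tested genes) and 0 at the adjusted threshold. Every KO library was above every WT library for 3 of the 8, Flt3 (0.49), Wdfy4 (0.48) and Zbtb46 (0.48), beside 5.83% of all tested genes. The groups overlapped for the other 5 of the 8. Most of the sum came from Wdfy4 (342 CPM in WT and 478 CPM in KO on average) and Irf8 (258 and 354.5 CPM), while Xcr1 and Clec9a, the markers most particular to these cells, varied widely between KO libraries. Among KO libraries 1 to 3, Wdfy4 (502, 523 and 410 CPM) and Irf8 (392, 385 and 287 CPM) were lowest in library 3, where Xcr1 and Clec9a were highest. The sum therefore cannot be read as the amount of type 1 dendritic cells. Xcr1 had 15.7, 17.7 and 15.4 CPM in the WT libraries and 25.4, 16.5 and 33.7 CPM in the KO libraries, and Clec9a had 16.8, 18.3 and 22.5 CPM against 24.2, 17.2 and 38.9 CPM, so that KO libraries 1 and 3 lay above all WT libraries and KO library 2 within their range. The same ratio of the summed means was 2.39 for erythroid, 1.74 for neutrophil, 1.32 for monocyte and macrophage, 1.24 for B cell and 0.833 for T cell markers. The ratio of means was 1.36 for Trim11, 2.78 for Xaf1, 2.96 for Fbxw10, 6.38 for Trim16 and 13.2 for AA465934. Monocyte and macrophage markers summed to between 1225 and 1941 CPM in WT and between 1300 and 2434 CPM in KO, with 9 of 10 positive. T cell markers summed to between 2088 and 2611 CPM in WT and between 1631 and 2475 CPM in KO, with 7 of 8 negative. The ranges of B cell markers were 1399 to 2465 CPM in WT and 1211 to 2815 CPM in KO, those of neutrophil markers 255 to 1070 CPM and 416 to 1319 CPM, and those of erythroid markers 247 to 860 CPM and 446 to 2710 CPM. No marker in these lists was at 0 in all libraries.

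KO library 3 resembled WT libraries 2 and 3 in its low level of B cell markers, with 1211 CPM against 1461 and 1399 CPM, while WT library 1 and KO libraries 1 and 2 had between 2465 and 2815 CPM. In KO library 3 the 5 genes had 132 CPM (Xaf1), 116 CPM (Trim11), 8.13 CPM (Trim16), 7.79 CPM (Fbxw10) and 7.67 CPM (AA465934). WT library 1 was the highest WT library for Xaf1 (47.8 CPM), Trim16 (1.94 CPM) and Fbxw10 (2.97 CPM), and the lowest for Trim11 (84.0 CPM) and AA465934 (0.228 CPM). These are the values by which the genes were chosen, and what part cell type composition had in them was not tested.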

How the data were processed

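RNA of CD8a+ spleen leukocytes of WT and KO mice was sequenced in 3 libraries per genotype after library preparation with a SMARTER kit for mRNA. For each Ensembl gene the authors deposited 1 value per library, which from its range and fractions is an expected count (an estimated count that need not be whole) with no scaling. Fractions occurred in 3527 to 4925 genes of a library. The submitters' processing notes name the builds GRCm38 and mm10. Which aligner, counter and annotation were used, and whether strand was, is not given in the sources used here. Within a genotype, pairs of libraries gave chi-square values of 6.55 to 23.5 per degree of freedom, above sampling noise.

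The deposited expected counts were rounded and analysed in R 4.3.3 with edgeR 4.0.16, using TMM factors (0.989 to 1.01), filterByExpr (minimum count 10, minimum total 15) and the quasi-likelihood test, followed by Benjamini-Hochberg adjustment at 0.05 over 13024 genes. CPM refers to counts scaled by library total and TMM factor. All 5 genes passed the filter. The 5 genes, the lists and the tests were chosen with earlier results of these data known. Genes were named by rule, as the 5 genes, their 3 nearest tested neighbours on each side, the 3 nearest profiles of each, the 2 genes just outside the threshold of 0.001 and, per list, the 2 genes with the highest level per kilobase and the 2 with the smallest p-value, as no list gene passed the adjusted threshold. Slfn9 and Slfn8 and the named markers were added after their values were seen. GENCODE M21 (GRCm38) holds 44121 (98.75%) of the identifiers and gave positions, exons and 3′-UTRs, and the microRNA and promoter sequences are from RefSeq (GRCm38.p6). Trim11 and Trim16 have no promoter shown. A few genes that these rules name are not reported here.

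The alternatives were DESeq2 1.42.0, limma voom (limma 3.58.1), upper-quartile scaling, no filter, unrounded counts, the replicate number as a block, each library left out in turn and the ratio of mean CPM on library totals. The procedure was tested on simulated counts.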

Additional observations from a re-analysis of the deposited data

How the results depend on the processing

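Across 185 alternative values, 177 stayed with the reported result, 8 moved and none reversed. The log2 fold changes of the 5 genes were positive in all 13 alternatives of each. Leaving out each library in turn gave 1.37 to 1.55 for Xaf1, 0.40 to 0.46 for Trim11, 2.33 to 3.13 for Trim16, 1.37 to 1.71 for Fbxw10 and 3.27 to 4.63 for AA465934, the highest without WT replicate 2. Over all tested genes the number under the adjusted threshold was 4 in the reported fit, 56 with DESeq2 (51 higher in KO), 12 with no filter on low counts, and 2 to 94 with 1 library left out, where 94 was reached without KO replicate 3. In the window around Mir144, where the choice left only Slfn8 and Slfn9 under 0.001, 2 to 4 other genes passed with 1 library left out, 4 of them without KO replicate 3. The 5 pathway lists and the 2 gene families had 0 in all 12 alternatives run on them. The neighbours had 0 too, but the choice of the 5 genes had already kept them above 0.001 in the reported fit, so nothing is read from this. These counts of 0 are among the values that stayed, so that total is no measure of stability. No alternative was run on the cell type markers. Why the counts moved was not tested.

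With the replicate number as a block, 9 genes passed, and the log2 fold changes were 1.47 for Xaf1, 0.44 for Trim11, 2.69 for Trim16, 1.54 for Fbxw10 and 3.79 for AA465934. The labels do not say whether the numbers pair the samples. The correlations of the deviations of same-numbered libraries were -0.01, -0.199 and 0.111, and those of differently numbered libraries ranged from -0.265 to 0.293. These values gave no sign of pairing but cannot exclude it. Low counts limit Trim16, Fbxw10 and AA465934, which had 32, 68 and 18 counts over the 3 WT libraries.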
